A study of Mus musculus with 8 samples.

Results

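NF-κB is a family of transcription factors built as dimers of 5 DNA-binding subunits, and the genes described here are these 5 subunits (Nfkb1, Nfkb2, Rel, Rela and Relb) with 5 genes that restrain or modulate them (Nfkbia, Nfkbib, Nfkbie, Nfkbiz and Tnfaip3). They were taken by name, with earlier results of these data known, and found by Entrez identifier. The 10 genes stand among 36528 listed identifiers, and all 10 were among the 16929 genes with enough counts to test.

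RNA was measured in 4 BAP1 KO libraries and 4 WT libraries of primary mesothelial cells from the mouse omentum, mesothelial cells being the lining of the body cavities. BAP1 removes ubiquitin from histones in the nucleus, and its gene is often lost in human mesothelioma. The labels give the genotype and nothing on how the knockout was made, on strain, age or sex, or on treatment. Replicate numbers used below follow the order of the samples within each genotype and do not come from the labels. No stimulus is named, so the values are those of cells as cultured or harvested.

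In resting cells most NF-κB dimers are held in the cytoplasm by IκB proteins. In the canonical pathway, signals from tumour necrosis factor, interleukin-1 or Toll-like receptors activate the IκB kinase complex, IκB is degraded, and dimers such as those of Rela and Nfkb1 enter the nucleus. In the non-canonical pathway, a stabilized kinase, the product of Map3k14, leads to processing of the Nfkb2 precursor and release of its dimers with Relb. Both arms switch on some of their own inhibitors and subunits, so transcript levels of Nfkbia, Nfkbie, Tnfaip3, Nfkb2 and Relb are known as feedback outputs as well as components. Activity of the factors depends on location and modification of the proteins, which RNA levels do not measure.

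The promoters of members that rose and of a member that fell are shown so that their letters can be read. RefSeq promoter windows of GRCm38.p6, running from 250 bases before to 50 bases after an annotated start, were found for 7 of the 10 genes. Those of Nfkb1, Relb and Nfkbiz were not used here. The windows shown are Nfkb2 (the outermost of 3, chr19:46304487-46304786, plus strand), Nfkbia (chr12:55492598-55492897, minus strand), Nfkbie (chr17:45555450-45555749, plus strand) and Tnfaip3 (the outer of 2, chr10:19015361-19015660, minus strand). Each is written in the direction of the gene, with capitals for matches on either strand to the κB consensus, the motif of 10 bases bound by NF-κB dimers. Nfkb2, Nfkbia and Nfkbie were higher in BAP1 KO, and Tnfaip3 was lower.
Nfkb2: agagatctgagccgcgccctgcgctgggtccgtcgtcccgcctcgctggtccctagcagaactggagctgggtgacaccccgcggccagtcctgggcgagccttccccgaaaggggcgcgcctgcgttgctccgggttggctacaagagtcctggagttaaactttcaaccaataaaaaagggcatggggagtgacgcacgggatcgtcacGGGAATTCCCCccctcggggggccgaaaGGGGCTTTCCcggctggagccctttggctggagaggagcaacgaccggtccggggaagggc
Nfkbia: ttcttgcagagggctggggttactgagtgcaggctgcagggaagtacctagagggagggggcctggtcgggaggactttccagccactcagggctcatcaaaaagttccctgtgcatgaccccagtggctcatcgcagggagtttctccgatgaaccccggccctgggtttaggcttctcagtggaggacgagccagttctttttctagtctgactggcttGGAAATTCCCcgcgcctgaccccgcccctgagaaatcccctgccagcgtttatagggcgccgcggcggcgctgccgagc
Nfkbie: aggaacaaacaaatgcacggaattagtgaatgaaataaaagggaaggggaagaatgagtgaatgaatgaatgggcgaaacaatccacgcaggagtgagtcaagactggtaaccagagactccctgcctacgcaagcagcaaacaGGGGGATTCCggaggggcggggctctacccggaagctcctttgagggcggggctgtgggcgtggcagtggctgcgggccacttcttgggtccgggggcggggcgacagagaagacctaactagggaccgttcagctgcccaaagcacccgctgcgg
Tnfaip3: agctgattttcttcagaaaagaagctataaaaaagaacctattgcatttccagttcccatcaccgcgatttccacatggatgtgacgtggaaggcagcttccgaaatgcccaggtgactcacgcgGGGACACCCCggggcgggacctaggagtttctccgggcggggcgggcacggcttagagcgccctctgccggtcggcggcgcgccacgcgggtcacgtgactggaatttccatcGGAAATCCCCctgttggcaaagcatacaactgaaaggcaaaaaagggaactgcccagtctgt

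Of the 7 genes with a window, 5 held a match in at least 1 of their windows. This compares with 12.4% of the 12330 tested genes that had a window, and with 8.46% of all 32851 windows. In Nfkbia the match GGAAATTCCC began 29 bases upstream of the start, and in Nfkbie GGGGGATTCC began 106 bases upstream. The Nfkb2 window held overlapping matches from 39 bases upstream and another, GGGGCTTTCC, from 11 bases upstream. Tnfaip3 held GGGACACCCC from 125 bases and GGAAATCCCC from 12 bases upstream, and Rel held overlapping matches from 92 bases upstream. The windows of Rela and Nfkbib held no match, which says only that these letters are not in these windows. Genes whose windows matched were thus among those that rose and those that fell. Over all tested genes the share with a match was 13.6% of those higher in BAP1 KO, 12.2% of those lower and 11.7% of those not called. A match is a string of letters, and binding was not measured.

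**Figure D1:**
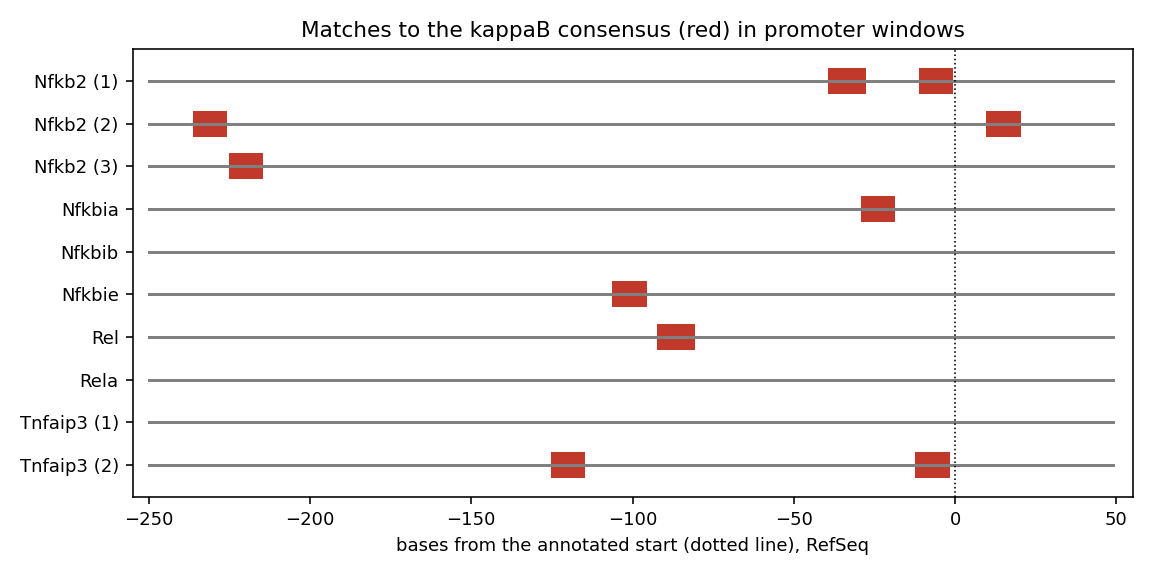
Positions of matches to the κB consensus (red boxes) in the RefSeq promoter windows of 7 genes, with the distance from the annotated start in bases on the x axis and numbers in brackets for genes with more than 1 window. Matches lie in windows of Nfkb2, Nfkbia, Nfkbie, Rel and Tnfaip3, and none lies in those of Nfkbib and Rela.

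The libraries held 69.5 to 82.1 M counts in BAP1 KO and 67.1 to 84.9 M in WT, and between 21654 and 22267 genes had at least 1 count in a library. Pairs of libraries from 1 genotype had a squared difference, as the median over genes, 2.38 to 5.34 times what counting alone gives. No pair thus agreed within counting error. Nothing in the labels says whether they came from separate animals or cultures, so p-values rest on how far these libraries scatter, and that scatter may be only technical. Bap1 stood at 53.2 ± 0.91 CPM in BAP1 KO and 63.2 ± 0.73 CPM in WT (SD, n = 4 each). CPM are counts per M of the library total after TMM scaling. The labels do not say which part of Bap1 was altered, so counts over the whole gene do not check the knockout.

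The label of mesothelial cells was set against markers of several cell types. The mesothelial genes Upk3b and Wt1 averaged 464 and 166 CPM in BAP1 KO, against 462 and 121 CPM in WT, and Msln averaged 3.06 CPM in BAP1 KO and 6.95 CPM in WT. Macrophage markers were abundant, with Lyz2 at 11027 CPM in BAP1 KO and 8388 CPM in WT. Summed over 17 macrophage and myeloid markers, the level was 16961 to 17491 CPM in BAP1 KO libraries and 14420 to 14736 CPM in WT libraries. Lyz2 alone made up most of that sum in both genotypes and most of its difference between them. Of the 17 markers, 10 were called higher and 6 lower. Of all tested genes, 29.0% were called higher and 32.1% lower. Ptprc, the pan-leukocyte antigen, stood at 118 CPM in BAP1 KO and 153 CPM in WT, and Csf1r at 877 CPM in BAP1 KO and 848 CPM in WT. The call for Csf1r (adjusted p = 0.029, up to 0.12 over the alternatives) was lost without BAP1 KO replicate 1, 2 or 3 or WT replicate 1 or 3. It was also lost with upper quartile factors, with library totals alone and with no filter on low counts, and exons of Csf1r overlap Hmgxb3. Fibroblast markers summed to 18869 to 19584 CPM in BAP1 KO and 22430 to 23933 CPM in WT, with 9 of 10 lower and 1 higher. The 14 mesothelial markers summed to 1395 to 1406 CPM in BAP1 KO and 1297 to 1329 CPM in WT. Of these, 7 were called higher and 5 lower. Lymphocyte markers summed to 5.54 to 5.93 CPM in BAP1 KO and 7.32 to 7.88 CPM in WT. Of the 8 tested, 2 were called higher and 2 lower, with a median log2 fold change of 0.15. The T cell genes Cd3d, Cd3e, Cd3g and Cd8a had at most 10 counts in any library. The 12 markers of dendritic cells, granulocytes and mast cells summed to 11.04 to 13.0 CPM in BAP1 KO and 15.01 to 16.2 CPM in WT, and 10 endothelial markers to 52.0 to 53.9 CPM in BAP1 KO and 60.8 to 62.9 CPM in WT. Of 7 tested markers of dendritic cells, granulocytes and mast cells, 0 were called higher and 2 lower. Of 7 tested endothelial markers, 1 was called higher and 5 lower. None of the cell type markers was at 0 in all 8 libraries. Bulk counts do not show which of these cell types expressed the NF-κB genes. The part of these cell types in the results below was not tested. In such bulk RNA, fewer cells of a type and less RNA per cell cannot be told apart.

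All 5 DNA-binding subunits were higher in BAP1 KO, by 9.89 to 51.8%, while the inhibitors split. Among the 5 genes that restrain or modulate NF-κB, Nfkbia and Nfkbie rose, Nfkbiz and Tnfaip3 fell, and Nfkbib did not pass. In all, 7 of the 10 genes were called higher and 2 lower at an adjusted p below 0.05 (edgeR's quasi-likelihood test with Benjamini-Hochberg adjustment over all genes tested). The same rule called 29.0% of all tested genes higher and 32.1% lower, or 61.1% either way, so that 9 calls among 10 are to be read against a high background. The genotypes did not overlap in the same 9 genes, 7 with all BAP1 KO libraries above all WT libraries and 2 below, against 53.8% of all tested genes either way, 25.1% above and 28.7% below. The median log2 fold change of the 10 genes was 0.22, and that of all tested genes was -0.0046.

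Relb changed most among the subunits. It encodes a subunit that pairs mainly with the Nfkb2 product and is itself a target of the canonical arm (Entrez 19698; GRCm38 chromosome 7, 19606217 to 19629438). Relb had 53.2, 51.7, 49.8 and 54.0 CPM in the BAP1 KO libraries, against 33.4, 34.5, 34.0 and 35.4 CPM in the WT libraries. Every BAP1 KO library lay well above every WT library. The log2 fold change of Relb was 0.60 ± 0.03 (SE), with an edgeR adjusted p = 1.3e-16, a 1.52-fold difference, and 4.76% of all tested genes had a higher one.

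Nfkb2, its partner, encodes a precursor that acts as an IκB-like inhibitor until it is processed (Entrez 18034; chromosome 19, 46300994 to 46312400). Its level was 135, 128, 130.0 and 134 CPM in BAP1 KO, against 105, 109, 106 and 113 CPM in WT. The genotypes were separate, with a gap wider than the spread within either. This is a log2 fold change of 0.29 ± 0.03 (edgeR adjusted p = 4.7e-11). Exons of Nfkb2 overlap those of Psd on the opposite strand over 299 bases and those of another transcript over 531 bases. The kit does not mark strand, so such reads may be counted for either gene or for neither. Psd itself had 16.4 CPM in BAP1 KO and 17.1 CPM in WT and did not pass (adjusted p = 0.29).

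Rela encodes the main activating subunit of the canonical arm (Entrez 19697; chromosome 19, 5637442 to 5648134). It had 119.7, 116, 121 and 120.5 CPM in BAP1 KO and 99.7, 106, 103 and 108 CPM in WT. The groups did not overlap, and the rise was smaller than that of Relb, with a log2 fold change of 0.20 ± 0.03 (edgeR adjusted p = 6.5e-08). Nfkb1, whose precursor is processed to the usual partner of Rela, had the smallest rise of the subunits (Entrez 18033; chromosome 3, 135584655 to 135691969). Its values were 107, 105, 105 and 106 CPM in BAP1 KO, against 93.1, 96.2, 97.0 and 98.1 CPM in WT. All 4 BAP1 KO libraries were above the highest WT library. The difference was 0.14 ± 0.02 on the log2 scale (edgeR adjusted p = 1.5e-05), and 27.0% of all tested genes had a higher one.

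Rel, a subunit best known from lymphoid and myeloid cells, was the lowest of the 10 genes (Entrez 19696; chromosome 11, 23736847 to 23770969). It had 6.15, 6.32, 6.49 and 6.30 CPM in BAP1 KO and 5.31, 4.92, 5.65 and 5.57 CPM in WT, on 359 to 529 counts. The ranges were separate, and the WT libraries were more scattered than for any other member. On the log2 scale the rise was 0.24 ± 0.06 (edgeR adjusted p = 0.0018). Over the alternatives the adjusted p ran from 0.0012 to 0.015. Its rise stands beside the higher summed macrophage markers, mostly Lyz2, and the lower Ptprc given above. The part of these cells in the rise of Rel was not tested.

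**Figure D2:**
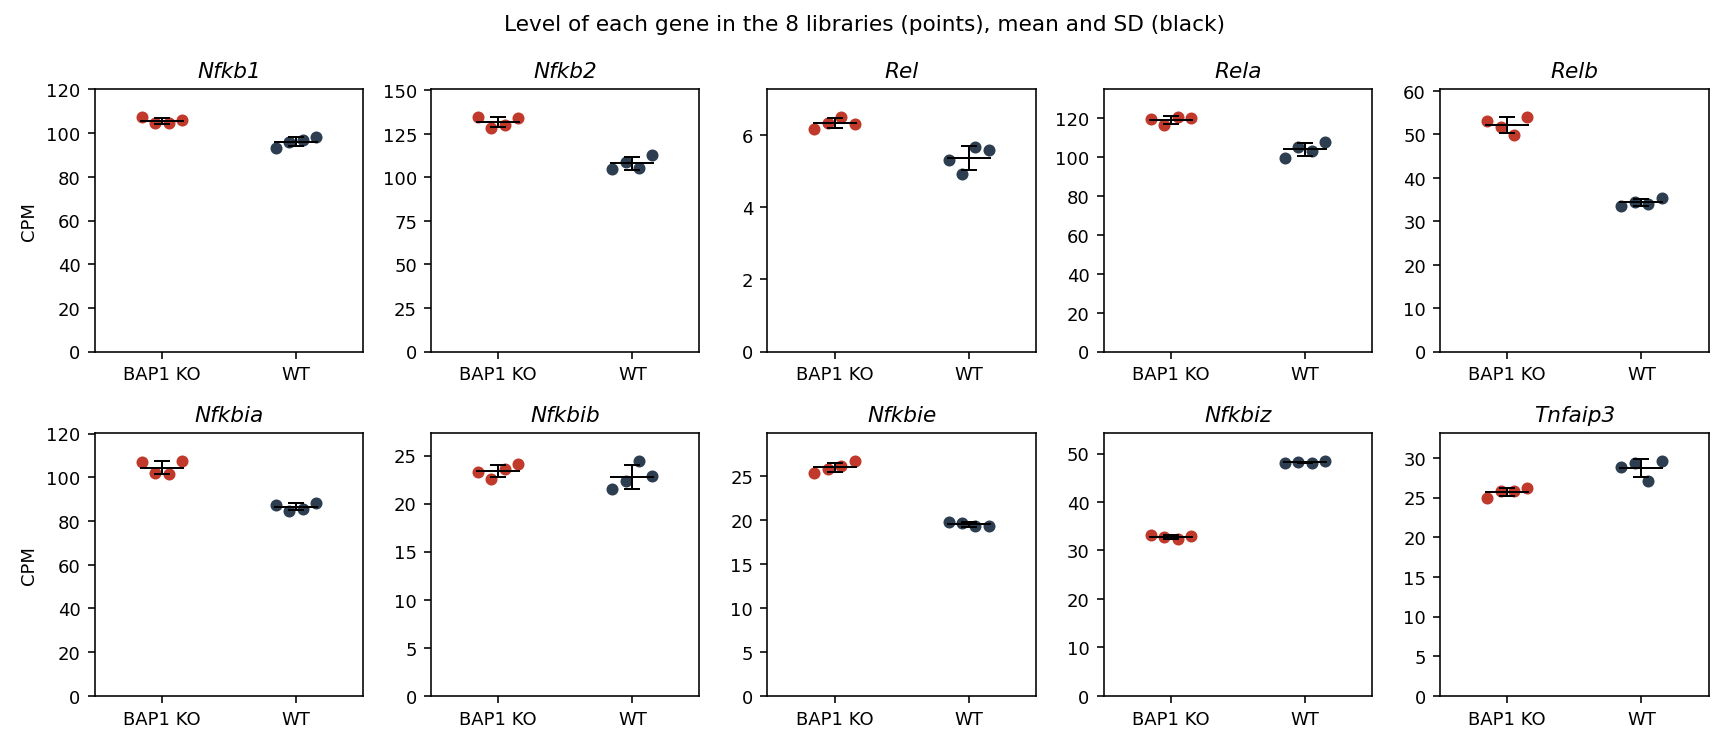
CPM (y axis, from 0) of each of the 10 genes in the 4 BAP1 KO libraries (red, left) and the 4 WT libraries (dark, right), with the mean and SD in black. BAP1 KO lies above WT in the 5 subunits and in Nfkbia and Nfkbie, below it in Nfkbiz and Tnfaip3, and overlaps it in Nfkbib.

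Of the 3 classical IκB genes, Nfkbie rose most in relative terms, Nfkbia rose less, and Nfkbib did not pass. Nfkbia encodes IκBα, the fast feedback inhibitor that returns Rela dimers to the cytoplasm (Entrez 18035; chromosome 12, 55489409 to 55492647). It had 107, 102, 102 and 107 CPM in BAP1 KO and 87.6, 84.8, 85.6 and 88.3 CPM in WT. The groups were far apart relative to their spread, at a log2 fold change of 0.27 ± 0.03 (edgeR adjusted p = 1.5e-10). Nfkbie encodes IκBε, a slower feedback inhibitor (Entrez 18037; chromosome 17, 45555700 to 45563169). Its level was 25.4, 25.7, 26.1 and 26.7 CPM in BAP1 KO, against 19.8, 19.6, 19.3 and 19.3 CPM in WT. Each group was tight and the 2 were separate, with a log2 fold change of 0.41 ± 0.04 (edgeR adjusted p = 1.8e-11), which 8.11% of all tested genes exceeded.

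Nfkbib encodes IκBβ, which responds more slowly to stimuli (Entrez 18036; chromosome 7, 28758251 to 28766644). It had 23.3, 22.5, 23.6 and 24.1 CPM in BAP1 KO and 21.5, 22.4, 24.4 and 22.9 CPM in WT, and the ranges overlapped. Its log2 fold change of 0.04 ± 0.04 did not pass (edgeR adjusted p = 0.42), with an approximate 95% interval of -0.04 to 0.12. The interval leaves room for a small change in either direction. Its exons overlap those of Ccer2 over 314 bases and Sirt2 over 42 bases on the opposite strand.

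Nfkbiz was the member that fell most. It encodes IκBζ, a nuclear protein of the IκB family that is induced by NF-κB and acts on chromatin as a coactivator for some genes and an inhibitor for others (Entrez 80859; chromosome 16, 55811375 to 55838954). Nfkbiz had 33.3, 32.8, 32.3 and 33.0 CPM in BAP1 KO, against 48.1, 48.2, 48.1 and 48.4 CPM in WT. The WT libraries were nearly identical, closer than counting noise usually gives on 3252 to 4095 counts. The highest BAP1 KO library lay far below them. Its log2 fold change was -0.55 ± 0.03 with an edgeR adjusted p = 1.4e-16, and 11.4% of all tested genes had a lower one. Tnfaip3 encodes a ubiquitin-editing enzyme that shuts off signals to the IκB kinase (Entrez 21929; chromosome 10, 19000910 to 19015410). It had 25.0, 25.8, 25.8 and 26.2 CPM in BAP1 KO and 28.9, 29.4, 27.1 and 29.6 CPM in WT. The groups came close, but the highest BAP1 KO library stayed under the lowest WT library, WT replicate 3. The fall came to -0.16 ± 0.04 in log2 fold change (edgeR adjusted p = 0.00026).

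Most of these changes were small. Relb and Nfkbiz were the 2 members whose log2 fold change passed 0.5 in either direction, a size that 19.0% of all tested genes reached. Tested against a 1.2-fold change, Relb, Nfkbie and Nfkbiz passed, 3 of the 10 genes, as did 22.8% of all tested genes. The standard deviation among 4 libraries of a genotype was 0.303 to 6.16% of the mean over the 10 genes. The spread within a genotype was thus small for all of them. The lowest value, that of Nfkbiz in WT, was below what counting noise usually gives.

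**Figure D3:**
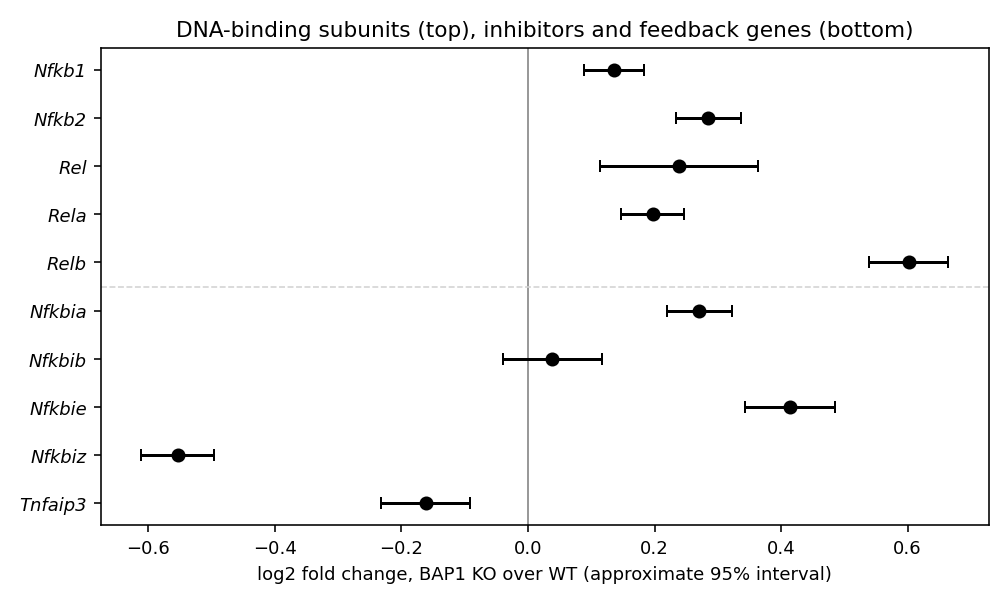
Log2 fold change of BAP1 KO over WT (x axis) for the 5 subunits and the 5 inhibitors and feedback genes, with approximate 95% intervals. The interval of Nfkbib spans 0, those of Nfkbiz and Tnfaip3 lie below it, and Relb has the highest value at 0.60.

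Levels of different genes were compared on the deposited RPKM, which take gene length into account. Nfkbia was highest in both genotypes, at 65.9 ± 2.05 RPKM in BAP1 KO and 54.1 ± 1.07 RPKM in WT (SD, n = 4 each). Rela followed at 40.6 ± 0.72 RPKM in BAP1 KO and 35.2 ± 1.15 RPKM in WT. Rel was lowest in both, at 2.43 ± 0.05 RPKM in BAP1 KO and 2.05 ± 0.13 RPKM in WT, below Tnfaip3 at 5.32 ± 0.09 RPKM in BAP1 KO and 5.90 ± 0.23 RPKM in WT. The order at both ends was thus shared by the genotypes.

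Next came the middle of the order. In BAP1 KO, Nfkb2 (27.6 ± 0.68 RPKM) lay above Nfkb1 (25.4 ± 0.37 RPKM) in every library, whereas in WT the values of Nfkb2 (22.5 ± 0.78 RPKM) and Nfkb1 (22.9 ± 0.51 RPKM) overlapped. Relb came below them in both, at 19.9 ± 0.72 RPKM in BAP1 KO and 13.0 ± 0.33 RPKM in WT. Nfkbiz, at 8.43 ± 0.12 RPKM, was below Nfkbib (10.98 ± 0.31 RPKM) and Nfkbie (10.5 ± 0.20 RPKM) in BAP1 KO. In WT the same gene, at 12.3 ± 0.04 RPKM, was above Nfkbib (10.6 ± 0.57 RPKM) and Nfkbie (7.78 ± 0.10 RPKM). Nfkbib lay above Nfkbie within each of the 8 libraries. Nfkbie per Nfkbib was 0.934, 0.981, 0.948 and 0.949 in BAP1 KO libraries, against 0.790, 0.754, 0.678 and 0.723 in WT libraries.

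**Figure D4:**
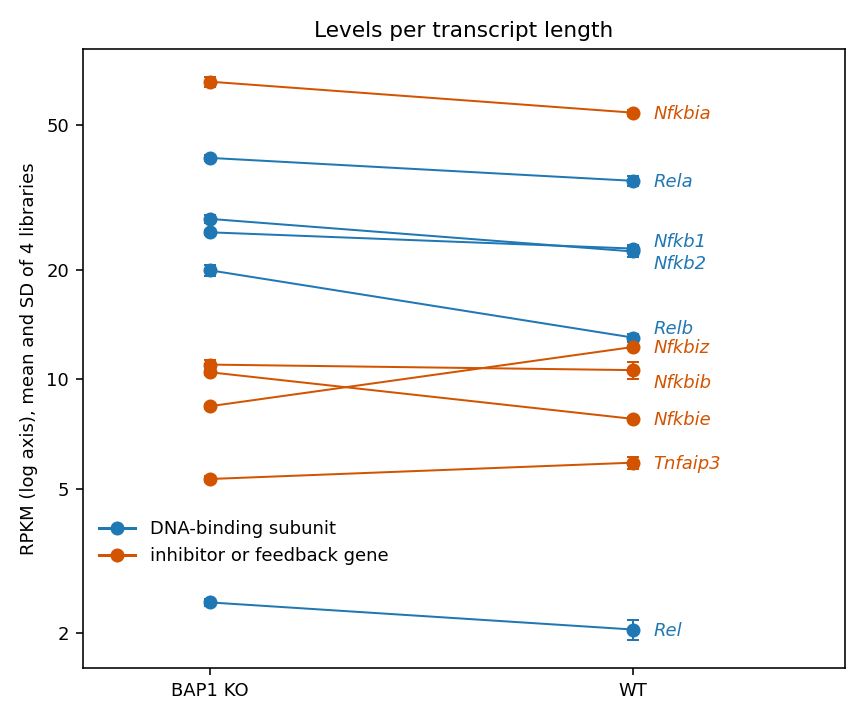
RPKM (log axis) of the 10 genes in BAP1 KO (left) and WT (right), as mean and SD of 4 libraries, with subunits in blue and inhibitors or feedback genes in orange. The lines of Nfkbiz cross those of Nfkbib and Nfkbie, and Nfkbia is highest and Rel lowest in both genotypes.

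Ratios between members within a library do not depend on how libraries are scaled. They were chosen after the values above were seen and are given without a test. Relb per Rela, in RPKM, was 0.499, 0.498, 0.463 and 0.503 in BAP1 KO libraries, against 0.376, 0.367, 0.369 and 0.369 in WT libraries. Nfkb2 per Nfkb1 was 1.09 ± 0.01 in BAP1 KO and 0.98 ± 0.02 in WT (SD, n = 4 each), without overlap. In both ratios the subunit of the non-canonical arm took a larger part in every BAP1 KO library than in any WT library.

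Among the inhibitors, Nfkbia per Rela was 1.62 ± 0.04 in BAP1 KO and 1.54 ± 0.06 in WT, and the libraries of the genotypes overlapped. Nfkbia, Nfkbib and Nfkbie together, per sum of Rela, Rel and Relb, came to 1.40, 1.38, 1.37 and 1.40 in BAP1 KO and 1.501, 1.41, 1.45 and 1.42 in WT. These ranges were separate but nearly touched. The sum of subunits includes Relb, which rose most among them, and the same ratio without Relb was not computed. Tnfaip3 per Nfkbia was 0.081 ± 0.003 in BAP1 KO and 0.11 ± 0.004 in WT, and Nfkbiz per Nfkbia was 0.13 ± 0.003 in BAP1 KO and 0.23 ± 0.004 in WT, both without overlap.

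The other genes of the pathway were counted by role, and each count is to be read against the 29.0% of all tested genes called higher and the 32.1% called lower. Of 20 further IκB-type genes and negative regulators, 8 rose (40.0%) and 5 fell (25.0%), while 7 did not pass. Their median log2 fold change was 0.0023. Nfkbid, which encodes another nuclear protein of the IκB family, rose to 9.84 ± 0.51 CPM in BAP1 KO, against 6.29 ± 0.29 CPM in WT (0.65 ± 0.06, edgeR adjusted p = 3.2e-11). It thus moved in the opposite direction to Nfkbiz. Bcl3, also a nuclear IκB gene and named after its value was seen, rose by 0.23 ± 0.04 on the log2 scale. Zc3h12a, an RNase that degrades inflammatory transcripts, rose by 0.39 ± 0.04, and Nkiras2, a small GTPase-like protein that binds IκB, by 0.36 ± 0.03. Irak3, an inhibitory member of the interleukin-1 receptor kinases, fell, with a log2 fold change of -0.63 ± 0.04. Exons of Nkiras2 overlap Dnajc7 over 287 bases and those of Irak3 overlap Tmbim4 over 192 bases.

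The next list held 12 genes for IκB kinases, kinases upstream of them and their scaffold and adaptor proteins. Of these, 4 rose (33.3%) and 2 fell (16.7%), 6 did not pass, and the median was 0.05. Ikbke, an IκB kinase relative that acts mainly in interferon signalling, rose to 67.1 ± 0.94 CPM in BAP1 KO, against 42.4 ± 1.83 CPM in WT (0.66 ± 0.03, edgeR adjusted p = 3.6e-18). Exons of Ikbke overlap Gm28914 over 159 bases and Gm28913 over 65 bases, both on the opposite strand. The core complex moved little. Ikbkg, its scaffold, rose by 0.19 ± 0.03, although its exons overlap G6pdx over 418 bases. Ikbkb, the kinase of the canonical arm, fell, with a log2 fold change of -0.16 ± 0.03 (48.0 CPM in BAP1 KO and 53.6 CPM in WT). Tab2, an adaptor of the upstream kinase Map3k7, rose by 0.11 ± 0.02. The other fall was that of Map3k7, -0.06 ± 0.03 (adjusted p = 0.040), named after its value was seen. It no longer passed with DESeq2 or RLE factors, nor without BAP1 KO replicate 1 or 4 or WT replicate 1 or 3.

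The kinases of the non-canonical arm did not pass. Chuk, which phosphorylates the Nfkb2 precursor, stood at 67.5 ± 1.83 CPM in BAP1 KO and 64.7 ± 2.54 CPM in WT (0.06 ± 0.03, edgeR adjusted p = 0.069). It passed with RLE factors, with 1 surrogate variable and without BAP1 KO replicate 1 (0.08) or WT replicate 1 (0.09). Map3k14, the kinase that starts this arm and is controlled mainly by protein turnover, stood at 14.6 ± 0.28 CPM in BAP1 KO and 14.5 ± 0.34 CPM in WT (0.01 ± 0.04, edgeR adjusted p = 0.80). Part of its exons, 135 bases, is shared with another gene on the same strand.

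Adaptors and ubiquitin ligases numbered 26, of which 10 rose and 10 fell (38.5% each way, against 29.0% and 32.1% of all tested genes). The other 6 did not pass, and the median was 0.0074. Traf3, which targets the Map3k14 product for degradation, rose to 66.6 ± 1.0 CPM in BAP1 KO, against 52.9 ± 1.16 CPM in WT (0.33 ± 0.03, edgeR adjusted p = 5.1e-12). The log2 fold change was -0.75 ± 0.06 for Ticam2 and -0.42 ± 0.04 for Tirap, both adaptors of Toll-like receptors, and -0.74 ± 0.07 for the ubiquitin ligase Peli2. Myd88 and Ticam1, adaptors of the same receptors named after their values were seen, did not pass, at 0.05 ± 0.03 (edgeR adjusted p = 0.094) for Myd88 and 0.04 ± 0.03 (adjusted p = 0.28) for Ticam1. The values of Ticam2, Tirap and Peli2 are uncertain, since exons of Ticam2 overlap Tmed7 over 838 bases, those of Tirap overlap an opposite-strand transcript over 446 bases, and those of Peli2 overlap Gm6498 over 869 bases.

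Of 24 receptors, 10 rose and 10 fell, 4 did not pass, and their median was -0.0039. That is 41.7% each way, against 29.0% of all tested genes higher and 32.1% lower. Tlr2 rose to 113 ± 0.55 CPM in BAP1 KO, against 73.8 ± 2.26 CPM in WT (0.62 ± 0.03, edgeR adjusted p = 2.6e-19), and Tnfrsf11a, the receptor RANK, rose by 0.38 ± 0.03. The interleukin-1 receptor Il1r1 fell to 101 ± 3.49 CPM in BAP1 KO, against 184 ± 3.77 CPM in WT (-0.86 ± 0.03, edgeR adjusted p = 3.5e-23). Cd14, the co-receptor of Tlr4 for lipopolysaccharide, fell to 74.8 ± 1.0 CPM in BAP1 KO, against 149 ± 3.35 CPM in WT. Tlr4 itself stood at 79.1 ± 4.97 CPM in BAP1 KO and 92.2 ± 5.56 CPM in WT (-0.22 ± 0.05, edgeR adjusted p = 0.0014). Cd14 and Tlr2, which moved in opposite directions, are expressed in macrophages, whose markers moved as given above. The part of these cells in the changes of Cd14 and Tlr2 was not tested.

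Of 12 ligands, 10 were tested, of which 6 fell (60.0%, against 32.1% of all tested genes), 2 rose (against 29.0%) and 2 did not pass. Their median was -0.54, against -0.0046 over all tested genes. Cd40lg and Lta, at 10 counts or fewer in every library, were not tested. Tnf, the ligand of the canonical arm, rose to 32.6 ± 0.54 CPM in BAP1 KO, against 23.8 ± 0.91 CPM in WT (0.46 ± 0.04, edgeR adjusted p = 1.1e-12). Il33 fell to 15.7 ± 0.49 CPM in BAP1 KO, against 26.0 ± 1.04 CPM in WT (-0.72 ± 0.04). Tnfsf14, a ligand of the lymphotoxin beta receptor, fell to 0.38 ± 0.13 CPM in BAP1 KO, against 2.28 ± 0.37 CPM in WT. Tnfsf12 fell, with a log2 fold change of -0.43 ± 0.03, but shares 731 exon bases with a read-through gene. Il1b was near silent, at 0.26 ± 0.07 CPM in BAP1 KO and 0.75 ± 0.11 CPM in WT (-1.51 ± 0.22, edgeR adjusted p = 7e-07). Its exons overlap Il1bos over 25 bases on the opposite strand.

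Of 49 reported NF-κB target genes, 44 were tested. Of these, 20 rose (45.5%) and 15 fell (34.1%), 9 did not pass, and the median was 0.02. This compares with 29.0% of all tested genes higher and 32.1% lower. The complement gene C3 rose to 1891 ± 19.9 CPM in BAP1 KO, against 1239 ± 26.8 CPM in WT (0.61 ± 0.02, edgeR adjusted p = 3.5e-22). The adhesion molecule Vcam1 fell to 79.0 ± 2.0 CPM in BAP1 KO, against 185 ± 6.06 CPM in WT (-1.22 ± 0.03, edgeR adjusted p = 1.2e-26). Exons of Vcam1 overlap Gm43109 over 61 bases on the opposite strand. Il1rn, the interleukin-1 receptor antagonist, fell, with a log2 fold change of -1.52 ± 0.04, and the matrix protease Mmp3 with -1.24 ± 0.04. Il6 fell to 15.7 ± 1.17 CPM in BAP1 KO, against 22.2 ± 1.66 CPM in WT (-0.50 ± 0.05, edgeR adjusted p = 3.4e-09). Lcn2, named after its value was seen, rose to 3.43 CPM in BAP1 KO, against 1.76 CPM in WT (0.97 ± 0.11). Il6 and Lcn2 are both known from macrophages as genes that IκBζ helps to switch on, and they moved in opposite directions here. The part of Nfkbiz in these changes was not tested. Of the 31 target genes with a promoter window, 14 held a match to the κB consensus, or 45.2%.

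**Figure D5:**
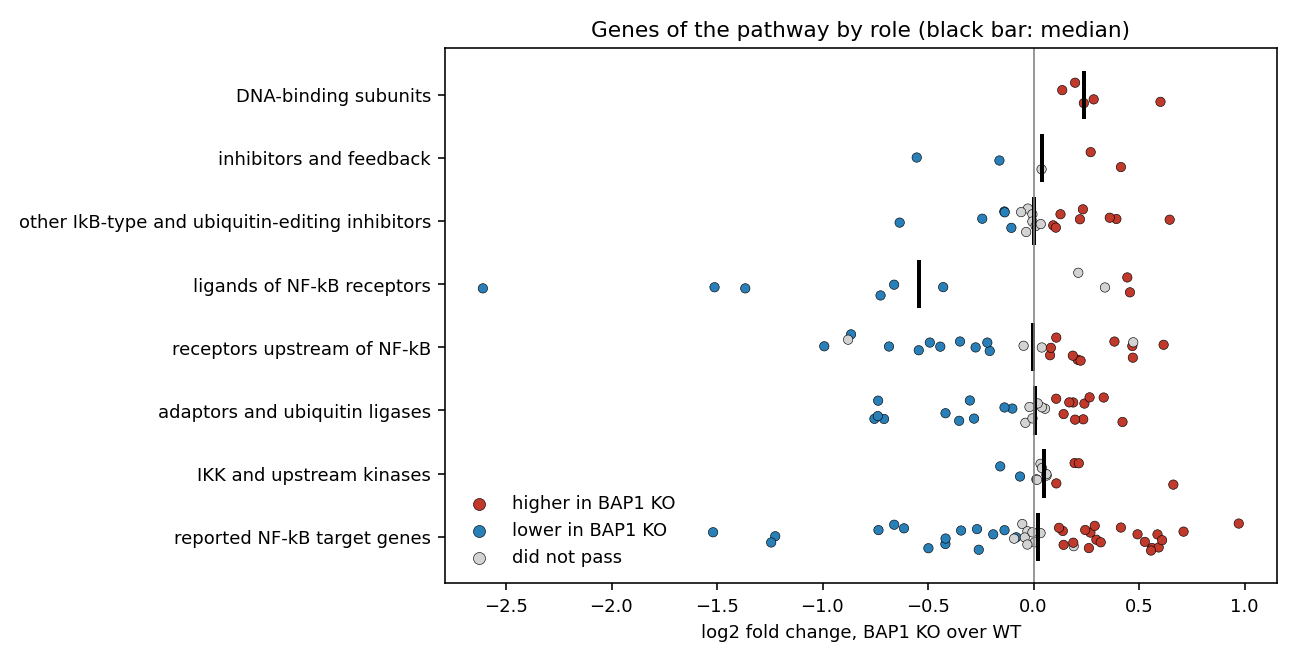
Log2 fold change of BAP1 KO over WT (x axis) for tested genes of the pathway by role, with red for higher, blue for lower, grey for genes that did not pass and a black bar at the median. The subunits all lie to the right of 0, the ligands have the lowest median (-0.54), and targets spread to both sides.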

How the data were processed

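RNA was measured in 4 BAP1 KO and 4 WT libraries, grouped by the genotype in the labels. Per the labels' protocols, polyadenylated RNA went through a TruSeq v2 kit, which does not mark strand, and was read as single-end reads of 50 bases. Per the submitters' processing notes, GSNAP and GRCm38 were used, with no annotation named. In the deposited files, per the file headers, a count is the number of reads that aligned uniquely to a gene model, and the RPKM carry a size-factor adjustment by the authors. Symbols came from RefSeq on GRCm38.p6 (31049 identifiers) and GENCODE vM21 (78), and coordinates from RefSeq. The other 5401 identifiers were tested without a symbol.

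Counts were tested over all genes with edgeR 4.0.16 (R 4.3.3), by the robust quasi-likelihood test with TMM factors, filterByExpr and Benjamini-Hochberg adjustment. Log2 fold changes are BAP1 KO over WT, with the standard error taken from the F value. Counts were also simulated, with 16773 genes tested and 50 genes with a mean over 1 CPM changed at each fold. Of these, 56.0% were recovered at 1.1-fold and 86.0% at 1.25-fold, and 10 unchanged genes were called. Far fewer genes were changed there than were called in the data, which makes the adjustment stricter. These shares therefore do not give the recovery in the data. Genes named were the 10 members, up to 4 called genes of each pathway list with the smallest adjusted p and at least 1 CPM in a genotype, and a fixed set of pathway and marker genes. Bap1 was named as the targeted gene. Outside this rule, Bcl3, Map3k7, Myd88, Ticam1 and Lcn2 were named after their values were seen. Psd was added because its exons overlap those of Nfkb2. Cd3d, Cd3e, Cd3g, Cd8a, Cd40lg and Lta were named as list genes too low to test. Members and lists were chosen with earlier results of these data known. Exon overlap was read from GENCODE vM21. The alternatives were RLE and upper quartile factors, library totals, no filter, a CPM over 1 required in 4 libraries, DESeq2 1.42.0, limma-voom (limma 3.58.1), 1 surrogate variable (sva 3.50.0), a test against 1.2-fold, RPKM in place of CPM, and each library left out.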

Additional observations from a re-analysis of the deposited data

Results flagged for a closer look

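In 2 of 92 groups of 4 libraries examined, a library stood apart from the other 3. The measure was the gap to its neighbour as a share of the group's range, both taken in log2 CPM. Chance flags about 1 in 20 such groups. WT replicate 3 had 0.58 CPM of Il1b, against 0.79 to 0.82 CPM in the other WT libraries, a gap of 0.894 of the range. BAP1 KO replicate 3 had 10675 CPM of Lyz2, against 11119 to 11160 CPM in the other BAP1 KO libraries, a gap of 0.917 of the range. None of the 10 NF-κB genes had such a library in either genotype.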

How the results depend on the processing

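The calls of 7 NF-κB genes higher and 2 lower were made under all 16 alternatives that keep the null hypothesis of no change, 8 of which leave out a library. Against a 1.2-fold change, 2 were higher and 1 lower. In the kinase list, scaffold and adaptors included, 1 gene fell with RLE factors or DESeq2 and 1 to 2 with a library left out. Over all genes, 4465 to 5159 were higher and 4878 to 5754 lower. Genes near 0 changed sign. The log2 fold change of Upk3b was -0.0038 with upper quartile factors, -0.010 with library totals, and -0.0060 to 0.013 with a library left out, and that of Map3k14 was -0.0014 with library totals. RPKM in place of CPM moved no ratio of genotype means of a member by more than its spread. No paired analysis was possible because the labels give no replicate numbers. Counting noise limits Rel most, at 359 to 529 counts a library.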
